A study of Homo sapiens with 4 samples.

Results

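The genes of the human mitochondrial genome were taken from RNA-seq counts of BICR10 cells with and without a hairpin against YEATS2. They were chosen by symbol, as every gene whose name starts with MT-, which gave 37 of the 60623 genes in the deposited counts. The 37 genes were 13 mRNAs, 2 rRNAs and 22 tRNAs, and all of them had a position on the mitochondrial chromosome (chrM, GRCh38/hg38, 16569 nt) in GENCODE release 44. On the plus strand of the reference lay 12 mRNAs, both rRNAs and 14 tRNAs, which are the genes usually called heavy-strand genes. The minus strand held MT-ND6 and 8 tRNAs, the light-strand genes.

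BICR10 is a cell line from a human head and neck cancer. Cells received a control hairpin (shControl) or a hairpin against YEATS2 (shYEATS2) by lentiviral transduction, and both groups were selected with 1 μg/mL puromycin for 3 days. RNA was extracted with TRIzol, enriched for polyadenylated molecules and turned into 2 stranded libraries per group. Which of the study's YEATS2 hairpins each shYEATS2 library carried was not given in the sources used here, and the library labels do not say whether the libraries of a group came from separate cultures. The study describes its replicates as biological in general terms, without naming these libraries, and the p-values measure only the spread between these libraries, which may in part be technical.

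The mitochondrial genome is a small circle of DNA present in many copies per cell, and it encodes core subunits of respiratory complexes I, III, IV and V together with the rRNAs and tRNAs that translate them. Its RNA polymerase, POLRMT, copies both strands into long transcripts, which are cut mostly at the tRNAs that lie between the other genes. Most of the mRNAs and the rRNAs then carry short poly(A) tails, and the complex of LRPPRC and SLIRP protects the mRNAs, while most of the light-strand RNA is degraded.

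Genes received 47297970 and 39824898 counts in shControl and 24072396 and 11334133 in shYEATS2, so a lower depth went with the knockdown and cannot be told apart from it. Levels are given as CPM, the counts on a gene per 1e6 counts after TMM scaling. A gene counted as called where its adjusted p, by Benjamini-Hochberg over 17058 genes in edgeR's quasi-likelihood test, was under 0.05. YEATS2, the target, read 66.1 and 66.7 CPM in shControl and 29.2 and 29.1 CPM in shYEATS2, a log2 fold change of −1.19 (SE 0.078, adjusted p = 3.55e-21). Summed markers of fibroblasts lay at 6169 to 6244 CPM in shControl and 1985 to 2107 CPM in shYEATS2, and 8 squamous markers at 149 to 152 and 133 to 143 CPM, most of it SFN, with TP63 and KRT17 at 0.397 CPM or less in every library. Endothelial markers summed to at most 2.21 CPM and immune markers to at most 0.170 CPM, with CD3E and CD68 at 0 counts in all 4 libraries. These levels moved beside the mitochondrial genes, and their part in the results was not tested.

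Mitochondrial genes took a smaller share of the RNA after YEATS2 knockdown. Their part of the counts on genes was 11.3% and 11.6% in shControl and 9.14% and 10.7% in shYEATS2, so the groups did not overlap. The mean went from 11.4% ± 0.208 to 9.91% ± 1.09 (SD, n = 2), and the 95% Wilson interval of a single library was at most 0.0360 percentage points wide, which covers counting error only. With 2 libraries against 2, an exact permutation test cannot give a two-sided p below 0.333. In bulk RNA such as this, fewer cells with high mitochondrial expression and less mitochondrial RNA per cell cannot be told apart.

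The difference was not even across the genome. For each of the 6 mRNAs of complexes III, IV and V, both shYEATS2 values were lower than either shControl value (background 36.3% of all genes tested). This grouping was made after the values had been seen, and MT-ATP8 separated only by 113 against 112 CPM. The plus-strand mRNAs for complex I and the small rRNA lay closer to their control levels. Of the 37 genes, 22 had enough counts to be tested, and edgeR called 7 of them lower (background 23.6% of all genes tested) and 0 higher (background 22.6%). At an unadjusted p under 0.05 the numbers were 9 lower and 1 higher, the last being MT-TW, and DESeq2 called 6 lower (background 17.3%) and 0 higher. The 7 genes were MT-CYB, MT-CO3, MT-CO2, MT-CO1, MT-ND2, MT-ND1 and MT-RNR2. The calls of MT-CO1, MT-CO2, MT-CO3 and MT-CYB held under every alternative run, and those of MT-ND1, MT-ND2 and MT-RNR2 did not.

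All 13 mRNAs were tested. Of these, 6 were called lower and 0 higher, and in 10 of 13 the knockdown libraries were both under the lower control library (background 36.3%), with 0 in the opposite order (background 35.3%). Their median log2 fold change was −0.30, against −0.01 over all genes tested, and all 13 estimates were below 0 under TMM. With a library left out the mRNA median ranged from −0.46 (without shYEATS2 2) to −0.19 (without shControl 1). With library totals alone as the scaling, the median over all genes tested rose to 0.13 and that of the mRNAs was −0.16, and MT-ND4 and MT-ND5 turned to 0.031 and 0.087. Among the 1390 other genes at least as abundant as the least abundant mitochondrial mRNA (136 CPM), the median was −0.12 and 46.1% were called lower, and the 6 of 13 mRNAs called lower did not stand apart from that share.

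**Figure D1:**
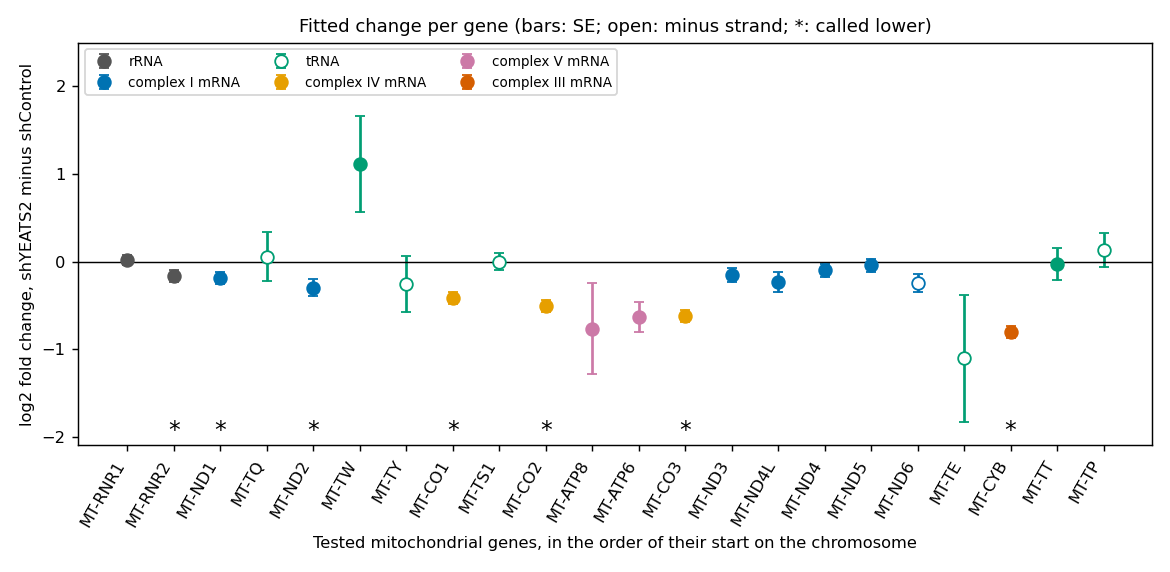
Log2 fold change of shYEATS2 against shControl for the 22 tested mitochondrial genes, in the order of their start on the chromosome, with bars for the SE, open points for minus-strand genes and a star for each of the 7 genes called lower. MT-CYB lies at −0.81 and MT-CO3 at −0.63, while MT-ND5 lies at −0.045 and MT-RNR1 at 0.021; MT-ND5 is above 0 when library totals are the scaling.

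MT-CYB, on chrM:14747-15887, had the largest fall among the mRNAs. It encodes cytochrome b, the only subunit of complex III made in the mitochondrion. It read 4771 and 5084 CPM in shControl and 2564 and 3068 CPM in shYEATS2, so the groups were far apart. The level in shYEATS2 was 57.1% of that in shControl, a log2 fold change of −0.81 (SE 0.067, edgeR adjusted p = 9.39e-14).

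The mRNAs for the catalytic core of complex IV, cytochrome c oxidase, all fell. MT-CO1, on chrM:5904-7445, encodes the subunit that holds the oxygen-reducing centre, and it read 27687 and 29883 CPM in shControl and 19659 and 23484 CPM in shYEATS2. MT-CO2, on chrM:7586-8269, encodes the subunit that receives electrons from cytochrome c, and its levels were 15672 and 16184 CPM in shControl and 10423 and 11971 CPM in shYEATS2. For MT-CO3, on chrM:9207-9990, the third core subunit, the values were 9396 and 9353 CPM in shControl and 5534 and 6625 CPM in shYEATS2. In all of these genes the higher shYEATS2 library stayed below the lower shControl library. The log2 fold changes were −0.42 (SE 0.070, edgeR adjusted p = 2.28e-06) for MT-CO1, −0.51 (SE 0.065, adjusted p = 1.04e-09) for MT-CO2 and −0.63 (SE 0.066, adjusted p = 2.73e-11) for MT-CO3, which left 74.9%, 70.3% and 64.8% of the control levels.

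MT-ATP6 and MT-ATP8 encode membrane subunits of complex V, the ATP synthase, and they share a stretch of sequence. MT-ATP6, on chrM:8527-9207, read 6363 and 6727 CPM in shControl and 3598 and 4813 CPM in shYEATS2. Its log2 fold change of −0.64 was about as large as that of MT-CO3, but its SE was 0.17 and it missed the threshold with an edgeR adjusted p of 0.0589, while DESeq2 gave 0.0105. It was called lower under 11 of the 12 alternatives run. MT-ATP8, on chrM:8366-8572, read 230 and 113 CPM in shControl and 91.8 and 112 CPM in shYEATS2. Here shControl 1 stood above the other libraries, which lay close together, and the log2 fold change of −0.77 had an SE of 0.52 and an edgeR adjusted p of 0.372, and it was −0.16 without shControl 1.

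The shared stretch of MT-ATP8 and MT-ATP6 is shown because a read pair that reaches into it can overlap both genes by position. It is 46 nt long and stands in capitals in chrM:8497-8602 (plus strand, hg38), beside the 7 nt shared by MT-ND4L and MT-ND4 in chrM:10730-10796 (plus strand).
MT-ATP8/MT-ATP6: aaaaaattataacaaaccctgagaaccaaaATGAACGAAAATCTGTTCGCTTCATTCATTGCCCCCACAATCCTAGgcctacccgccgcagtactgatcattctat
MT-ND4L/MT-ND4: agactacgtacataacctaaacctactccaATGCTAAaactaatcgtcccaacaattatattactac
The capitals begin at the ATG of MT-ATP6 and of MT-ND4 and end with the last base of MT-ATP8 and of MT-ND4L. MT-ATP8 and MT-ND4L were 207 and 297 nt long, and together with MT-ND3 (346 nt) they were the mRNAs under 400 nt. These 3 were higher in shControl 1 than in shControl 2, by 0.20 to 1.03 on the log2 scale, while the 10 mRNAs of at least 500 nt differed by −0.17 to 0.12 between the same libraries.

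The mRNAs for complex I, NADH dehydrogenase, had smaller estimates. MT-ND1, on chrM:3307-4262, read 2872 and 2870.3 CPM in shControl and 2273 and 2775 CPM in shYEATS2, and MT-ND2, on chrM:4470-5511, read 4328 and 4857 CPM in shControl and 3338 and 4139 CPM in shYEATS2. Both encode membrane subunits of the proton-pumping arm. Both were called lower by edgeR, MT-ND1 with a log2 fold change of −0.19 (SE 0.067, adjusted p = 0.0223) and MT-ND2 with −0.30 (SE 0.093, adjusted p = 0.0207). DESeq2 called neither, with adjusted p of 0.359 and 0.214, and without shYEATS2 1 the fold change of MT-ND1 was −0.063.

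The other complex I mRNAs of the plus strand were not called by edgeR as run for the report. MT-ND4, on chrM:10760-12137, read 13328 and 14551 CPM in shControl and 11645 and 14342 CPM in shYEATS2 (log2 fold change −0.10, edgeR adjusted p = 0.291). MT-ND5, on chrM:12337-14148, read 3075 and 3235 CPM in shControl and 2736 and 3381 CPM in shYEATS2 (−0.045, adjusted p = 0.649). In both genes shYEATS2 2 lay inside or above the range of the controls. MT-ND3, on chrM:10059-10404, read 2248 and 1960.2 CPM in shControl and 1721 and 2070.2 CPM in shYEATS2 (−0.15, edgeR adjusted p = 0.154), also with overlapping groups. MT-ND4L, on chrM:10470-10766, read 772 and 601 CPM in shControl and 571 and 597 CPM in shYEATS2 (−0.23, edgeR adjusted p = 0.170), where the groups were separated by less than the distance between the shControl libraries. Of 12 alternatives each, MT-ND3 was called lower under 4, MT-ND4L under 3, MT-ND4 under 2 and MT-ND5 under 1. Without shYEATS2 2 their estimates were lower, at −0.30 for MT-ND3, −0.26 for MT-ND4 and −0.21 for MT-ND5, all of them called, while without shYEATS2 1 they were at −0.038, 0.027 and 0.086 and not called. MT-ND4L was at −0.41 and called without shControl 2, and at −0.047 and not called without shControl 1.

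**Figure D2:**
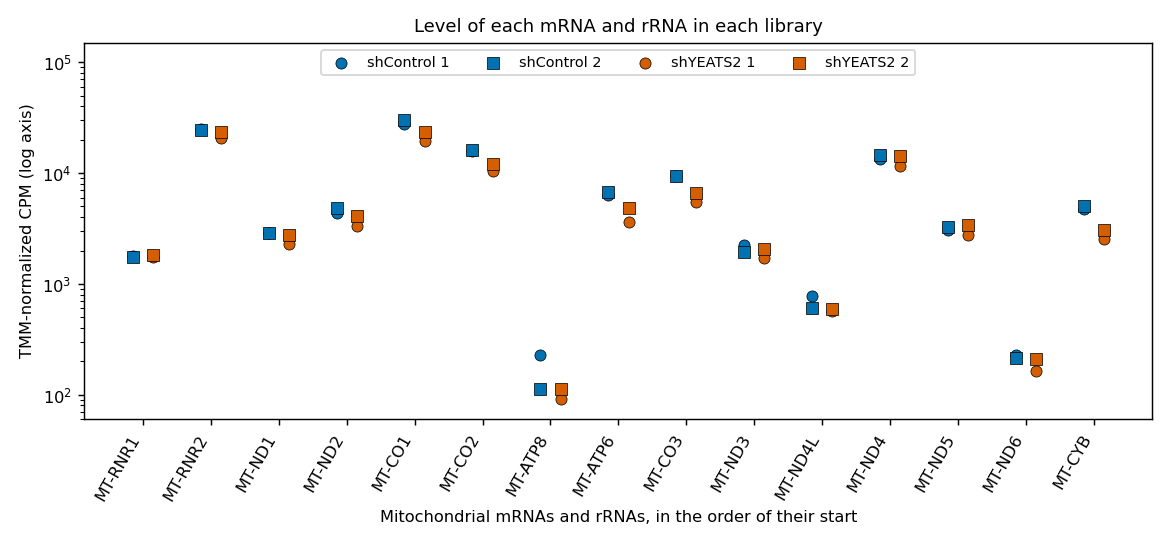
TMM-normalized CPM of the 13 mRNAs and 2 rRNAs in each library on a log axis, with circles for library 1 and squares for library 2 of each group. The shYEATS2 points of MT-CYB, at 2564 and 3068 CPM, sit below the shControl points at 4771 and 5084 CPM, while the points of MT-ND5 overlap.

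Grouping the plus-strand mRNAs by complex was done after their values had been seen, so the values that follow are a description. As background, edgeR called 23.6% of all genes tested lower and DESeq2 17.3%. Among the 1390 other genes at least as abundant as the least abundant mitochondrial mRNA, edgeR called 46.1% lower. In the 6 mRNAs of complexes III to V the median log2 fold change was −0.63, with 4 called lower by edgeR and 5 by DESeq2. Among the 6 plus-strand mRNAs of complex I it was −0.17, with 2 called lower by edgeR and 0 by DESeq2 (2 at an unadjusted p under 0.05 in edgeR). The summed counts of the first group were 2.41 and 2.40 times those of the second in shControl and 1.88 and 1.83 times in shYEATS2. This ratio does not depend on the scaling of the libraries, and it was nearly equal within each group. The difference was −0.37 on the log2 scale, against a pooled SD of 0.018. As a share of all mitochondrial counts, the mRNAs of complexes III to V went from 54.5% and 55.2% in shControl to 48.2% and 48.7% in shYEATS2, and the plus-strand mRNAs of complex I from 22.6% and 23.0% to 25.6% and 26.6%.

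**Figure D3:**
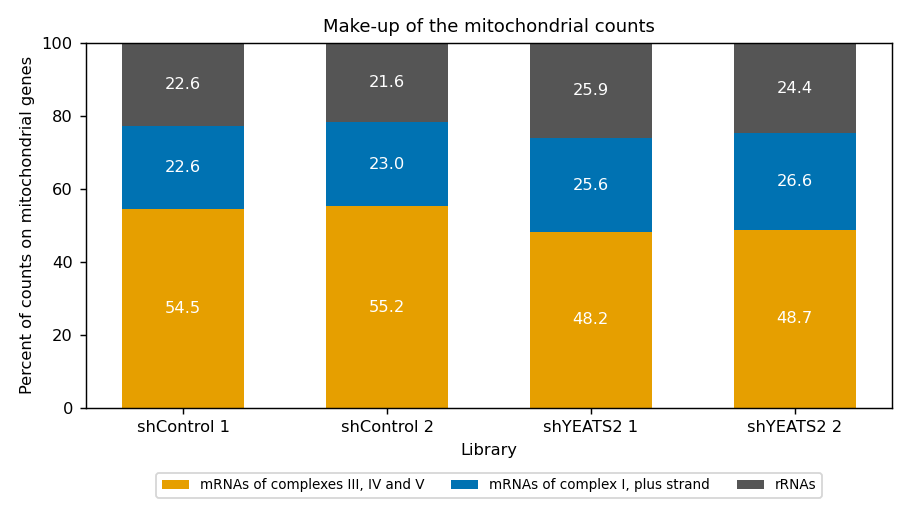
Percent of the counts on mitochondrial genes held by the mRNAs of complexes III to V, the plus-strand mRNAs of complex I and the rRNAs in each of the 4 libraries. The first share is 54.5% and 55.2% in shControl and 48.2% and 48.7% in shYEATS2.

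The plus-strand neighbours MT-ND5 and MT-CYB had the highest and the lowest log2 fold change of the 12 plus-strand mRNAs. The difference in their ratio restates these extremes and is no separate result. These genes are separated by 598 nt that hold MT-ND6 and MT-TE on the other strand. The ratio of MT-CYB to MT-ND5 counts was 1.55 and 1.57 in shControl and 0.937 and 0.908 in shYEATS2, a difference of −0.76 on the log2 scale (pooled SD 0.025). MT-CYB thus had more counts than MT-ND5 in both control libraries and fewer in both knockdown libraries. The ends that face each other are shown with the start of MT-ND6, which is read in the opposite direction between them.
MT-ND5, last 60 nt, chrM:14089-14148, plus strand: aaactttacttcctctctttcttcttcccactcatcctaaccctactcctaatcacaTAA
MT-ND6, first 60 nt, chrM:14614-14673, minus strand: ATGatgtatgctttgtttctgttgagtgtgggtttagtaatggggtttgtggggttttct
MT-CYB, first 60 nt, chrM:14747-14806, plus strand: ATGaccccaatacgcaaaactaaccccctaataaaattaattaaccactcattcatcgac
Capitals mark the last 3 bases of MT-ND5 and the first 3 bases of the others. The sequences are those of the hg38 reference. MT-ND6 was 35.6% G and 7.05% C, whereas the 12 plus-strand mRNAs held 6.28% to 16.2% G and 29.5% to 36.0% C. Across these 12, the log2 fold change had a Pearson r of 0.34 with length, −0.03 with GC content and −0.14 with the start position. The genes share libraries and a primary transcript, so these values are descriptions.

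MT-ND6, on chrM:14149-14673, is the only mRNA of the light strand, and it encodes a membrane subunit of complex I. Its values describe the molecules that the enrichment for polyadenylated RNA kept, which need not reflect its level in the cell. The strand setting of the counting was not given. Whether reads of plus-strand RNA opposite MT-ND6 entered its counts was not tested. It read 231 and 212 CPM in shControl and 165 and 211 CPM in shYEATS2, so the groups were separated by only a small margin. The log2 fold change was −0.25 (SE 0.10) with an edgeR adjusted p of 0.0813, and DESeq2 gave 0.352. MT-ND6 was called lower under 4 of the 12 alternatives run, and with a library left out it ranged from −0.43 (without shYEATS2 2) to −0.085 (without shYEATS2 1). The estimate lay between MT-ND4L and MT-ND2 on the plus strand. Relative to the other 12 mRNAs, MT-ND6 held 0.00254 and 0.00223 times their counts in shControl and 0.00258 and 0.00273 times in shYEATS2. That is 1 count on MT-ND6 for 420 on the others in shControl and for 377 in shYEATS2, a difference of 0.16 on the log2 scale with a pooled SD of 0.10. It ranged from 0.061 (without shControl 2) to 0.25 (without shControl 1) with a library left out, and was also 0.25 as the median of the ratios to single mRNAs. The lowest shYEATS2 library exceeded the highest shControl library by far less than the shControl libraries differed from each other. The other 12 mRNAs include those of complexes III to V, which had the larger falls. Set beside the 6 plus-strand mRNAs of complex I, with a median log2 fold change of −0.17, MT-ND6 at −0.25 was not higher. The rise of the ratio therefore depends on the mRNAs that MT-ND6 is set against.

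The rRNAs form the small and large subunits of the mitochondrial ribosome. MT-RNR1, the small-subunit rRNA on chrM:648-1601, read 1778 and 1739.8 CPM in shControl and 1739.7 and 1830.5 CPM in shYEATS2, a log2 fold change of 0.021 (SE 0.058, edgeR adjusted p = 0.797). The sign of this estimate turned with the choice of genes kept, and with library totals as the scaling it was 0.15 and called higher (adjusted p = 0.0273). MT-RNR2, the large-subunit rRNA on chrM:1671-3229, read 24858 and 24605 CPM in shControl and 20793 and 23267 CPM in shYEATS2. It was called lower with a log2 fold change of −0.17 (SE 0.066, edgeR adjusted p = 0.0311), but with library totals the estimate was −0.034 and not called, and without shYEATS2 1 it was −0.10 (adjusted p = 0.104).

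Relative to the summed mRNAs the rRNAs held a larger share after knockdown, which depends on the mRNAs they are set beside. Their summed counts were 0.293 and 0.275 times those of the mRNAs in shControl and 0.350 and 0.323 times in shYEATS2, a difference of 0.25 on the log2 scale with a pooled SD of 0.072. The ratio of MT-RNR1 to MT-RNR2 was also higher, at 0.0715 and 0.0707 in shControl and 0.0837 and 0.0787 in shYEATS2, and with MT-RNR1 alone the difference from the mRNAs was 0.42. These libraries were made from polyadenylated RNA, so the values describe the rRNA molecules that this enrichment kept.

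**Figure D4:**
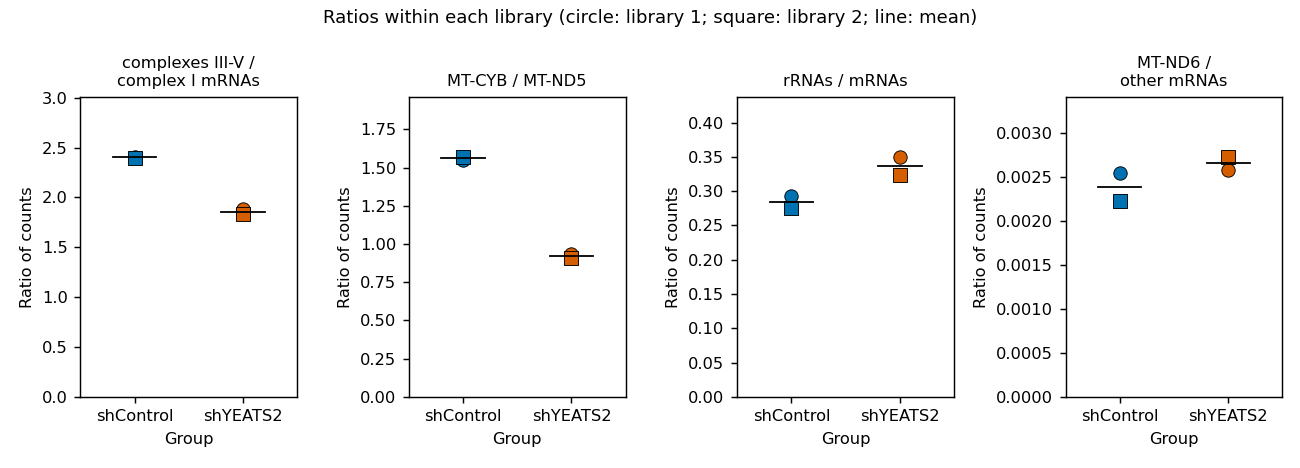
Ratios of counts within each library for complexes III to V over plus-strand complex I mRNAs, MT-CYB over MT-ND5, rRNAs over mRNAs, and MT-ND6 over the other mRNAs, with a circle and a square for the libraries of each group and a line at their mean. The first ratio is 2.41 and 2.40 in shControl and 1.88 and 1.83 in shYEATS2, while for MT-ND6 the 2 groups nearly touch at 0.00254 and 0.00258.

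Per length, the most abundant mitochondrial mRNA in both groups was MT-CO2, with a mean of 23287 CPM per kb in shControl and 16370.4 CPM per kb in shYEATS2. In shControl it was followed by MT-CO1 at 18667 ± 1007 and MT-RNR2 at 15863 ± 115 CPM per kb, and in shYEATS2 the latter pair, at 13989 ± 1754 and 14131 ± 1122 CPM per kb, did not differ beyond their spread. MT-CO3 and MT-ND4 stood at 11957 ± 39.1 and 10116 ± 627 CPM per kb in shControl. In shYEATS2 they stood at 7754 ± 984 and 9429 ± 1384 CPM per kb. MT-CYB and MT-ND1 went from 4319 ± 194 and 3003 ± 1.15 CPM per kb to 2468 ± 313 and 2640 ± 371 CPM per kb. Within both pairs the shYEATS2 means did not differ beyond their spread, but each shYEATS2 library by itself had MT-ND4 above MT-CO3 and MT-ND1 above MT-CYB. At the bottom were MT-ATP8, at 827 and 491 CPM per kb, and MT-ND6, at 422 and 359 CPM per kb. MT-ATP8 is 207 nt long and shares 46 nt with MT-ATP6, so pairs covering both genes may be missing from its counts. Its place in this ranking may therefore not reflect the level of its RNA, and that of MT-ND6 depends on the enrichment for polyadenylated RNA.

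Few tRNA counts were recovered, 4879 in all, and 12 of the 22 tRNA genes had 0 counts in every library. These were MT-TV, MT-TL1, MT-TM, MT-TD, MT-TK, MT-TG, MT-TR, MT-TH, MT-TS2 and MT-TL2 on the plus strand and MT-TN and MT-TC on the minus strand. A count of 0 allows up to 3 counts, which is 0.0634 and 0.0753 CPM in shControl and 0.125 and 0.265 CPM in shYEATS2, before TMM scaling. This bound covers counting error only. All 12 genes lie within 1 nt of a neighbour on their strand, so pairs covering both genes may have been set aside as ambiguous. A count of 0 is thus no measure of the level of these RNAs. MT-TF (6, 12, 7 and 2 counts), MT-TI (6, 0, 0 and 0) and MT-TA (16, 6, 0 and 1), given as shControl 1, shControl 2, shYEATS2 1 and shYEATS2 2, were too low to be tested.

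Most tRNA counts fell on the minus strand, with 4190 counts against 689 on the plus strand. MT-TS1, MT-TQ and MT-TP, the tRNAs for serine, glutamine and proline, lie more than 1000 nt from the next gene on their own strand and held 81.0% of all tRNA counts. The other 19 tRNA genes lie within 1 nt of a neighbour on their strand, and the highest of them was MT-TT, the threonine tRNA next to MT-CYB, with 609 counts. How far pairs set aside as ambiguous, or reads of RNA from the opposite strand, shaped these counts and the split by strand was not tested. The sequences of these abundant tRNA genes, from the hg38 reference, are given below in the direction of the RNA, without the CCA end that is added after transcription.
MT-TS1, chrM:7446-7514, minus strand: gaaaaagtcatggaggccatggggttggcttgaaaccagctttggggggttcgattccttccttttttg
MT-TQ, chrM:4329-4400, minus strand: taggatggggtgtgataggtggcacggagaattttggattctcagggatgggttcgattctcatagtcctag
MT-TP, chrM:15956-16023, minus strand: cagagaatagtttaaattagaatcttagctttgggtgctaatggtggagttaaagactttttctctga
MT-TT, chrM:15888-15953, plus strand: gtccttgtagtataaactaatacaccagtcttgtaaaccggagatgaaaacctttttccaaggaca
All of them are shorter than the 150 bp reads, so a read pair given to a tRNA gene may come from a longer RNA that includes it.

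The 7 tRNAs with enough counts showed no called change. MT-TS1 read 23.7 and 25.7 CPM in shControl and 21.8 and 28.7 CPM in shYEATS2, a log2 fold change of −0.003 (SE 0.099, edgeR adjusted p = 0.984), with a sign that turned under several scalings. MT-TQ read 5.29 and 3.10 CPM in shControl and 3.55 and 5.77 CPM in shYEATS2, MT-TP 4.25 and 3.92 against 3.79 and 5.60 CPM, and MT-TT 6.15 and 3.86 against 4.93 and 5.01 CPM. In each of these the groups overlapped, and the edgeR adjusted p was 0.891 for MT-TQ, 0.600 for MT-TP and 0.926 for MT-TT. MT-TY had 56 and 75 counts in shControl and 36 and 14 in shYEATS2 (log2 fold change −0.26, edgeR adjusted p = 0.538). MT-TE had 16 and 13 counts in shControl and 5 and 1 in shYEATS2 (−1.11, SE 0.73, edgeR adjusted p = 0.216), and MT-TW had 17 and 7 counts against 15 and 8 (1.11, SE 0.55, edgeR adjusted p = 0.0918), so a difference was not detectable at this depth in either.

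**Figure D5:**
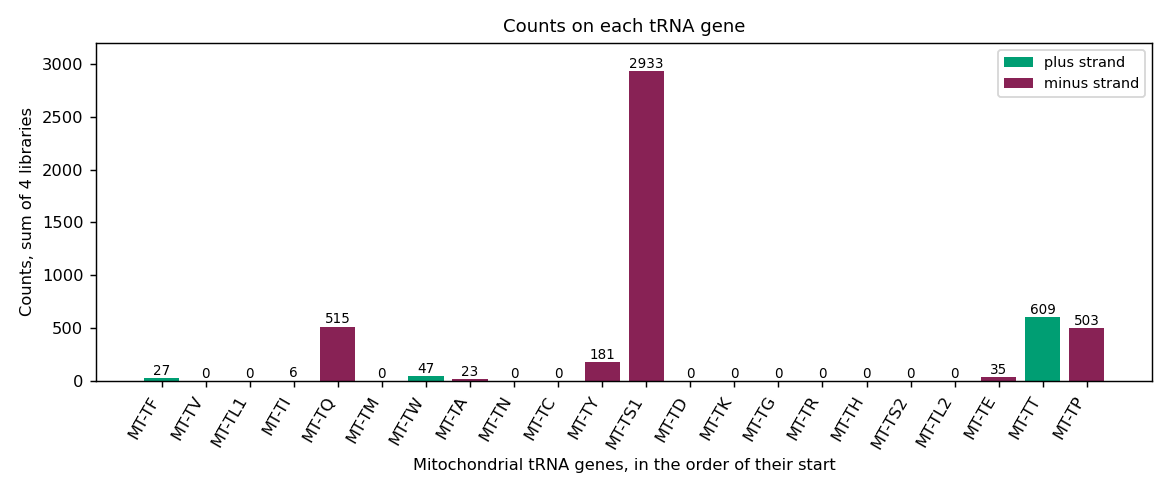
Counts on each of the 22 mitochondrial tRNA genes summed over the 4 libraries, in the order of their start, with plus-strand and minus-strand genes in different colours. MT-TS1 has 2933 counts and MT-TT 609, and 12 genes have 0.

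Between the strands, the tRNAs did not separate the groups. The 8 minus-strand tRNAs held 5.18 and 8.05 times the counts of the 14 plus-strand tRNAs in shControl and 5.29 and 7.07 times in shYEATS2, a difference of −0.08 on the log2 scale with a pooled SD of 0.38, and the direction turned without shControl 2 or without shYEATS2 1. Relative to the plus-strand mRNAs, the minus-strand tRNAs were higher in both shYEATS2 libraries, by 0.42 on the log2 scale with a pooled SD of 0.088. As a part of the counts on genes, the minus-strand tRNAs overlapped between the groups. They held 0.00337% and 0.00334% in shControl and 0.00323% and 0.00431% in shYEATS2.

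The shYEATS2 libraries also differed from each other. For all 13 mRNAs shYEATS2 1 lay below shYEATS2 2, by −0.42 to −0.06 on the log2 scale with a median of −0.28, which is about as large as the median change between the groups. The shControl libraries differed in both directions, with a median of −0.05. The difference in the share of mitochondrial counts was thus −2.29 percentage points with shYEATS2 1 alone and −0.748 with shYEATS2 2 alone.

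Nuclear copies of mitochondrial genes can take or lose reads by their similar sequence. The 407 such genes held 0.862% to 1.16% of the counts on the mitochondrial genes. The most abundant was MTATP6P1 on chromosome 1, a near copy of MT-ATP6, with 798 and 710 CPM in shControl and 447 and 529 CPM in shYEATS2, which is 10.6% to 12.5% of the MT-ATP6 counts. Its log2 fold change of −0.63 (SE 0.068, edgeR adjusted p = 5.29e-09) was close to that of MT-ATP6, and how reads were divided between them is uncertain. MTCO1P12, the next, read 405 and 257 CPM in shControl and 227 and 253 CPM in shYEATS2 (−0.47, edgeR adjusted p = 0.378), at 0.860% to 1.46% of the MT-CO1 counts.

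Nuclear genes that express the mitochondrial genome moved in both directions. Of 61 such genes in 6 lists, 60 were tested, 17 were called lower and 9 higher, with a median log2 fold change of −0.03, beside backgrounds of 23.6% lower and 22.6% higher. In the transcription list 1 of 9 was lower and 2 were higher. TFAM, which packages the genome and starts transcription, read 65.1 ± 2.02 CPM in shControl and 55.9 ± 2.39 CPM in shYEATS2 (−0.23, edgeR adjusted p = 0.00731). POLRMT, the polymerase, read 60.4 ± 2.58 and 53.1 ± 5.51 CPM (−0.17, edgeR adjusted p = 0.0528) and was not called. TFB2M, the initiation factor that opens the promoter, rose from 22.3 ± 1.17 to 27.9 ± 1.05 CPM (0.32, edgeR adjusted p = 0.00274), and TFB1M, which methylates the small rRNA, from 11.02 ± 0.129 to 14.1 ± 0.352 CPM (0.36, edgeR adjusted p = 0.00722). TEFM, the elongation factor, was at 9.31 and 9.33 CPM. Of 12 alternatives each, the TFAM call was lost under 3 (library totals, thinned counts and without shControl 2), the TFB1M call under 4 (DESeq2 and without shControl 1, shControl 2 or shYEATS2 1) and the TFB2M call under 1 (without shControl 1), while POLRMT was called lower under 4, at −0.31 without shYEATS2 1.

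Genes for RNA processing and stability held 3 of 8 and 3 of 11 called lower and 0 higher in either list (1 and 2 higher at an unadjusted p under 0.05 in edgeR, 0 in DESeq2). The backgrounds were again 23.6% lower and 22.6% higher. FASTK, whose mitochondrial form is known to be needed for MT-ND6 mRNA, fell from 70.7 ± 1.18 to 43.0 ± 8.08 CPM (−0.69, edgeR adjusted p = 6.65e-09). FASTKD1, of the same family, fell from 35.5 ± 1.17 to 26.2 ± 1.62 CPM (−0.45), and TBRG4, another relative that acts on several mitochondrial mRNAs, from 147 ± 2.63 to 118 ± 16.4 CPM (−0.31). The TBRG4 call was lost under 1 of 12 alternatives. HSD17B10, a subunit of the enzyme that cuts the 5′ ends of tRNAs, fell from 87.7 ± 1.77 to 65.0 ± 3.599 CPM (−0.43). SLIRP fell from 49.0 ± 5.14 to 40.1 ± 1.08 CPM (−0.28, edgeR adjusted p = 0.00225), a call that was lost without shControl 1 and with library totals. Its partner LRPPRC read 238 ± 7.96 and 262 ± 11.8 CPM (0.14, edgeR adjusted p = 0.0577) and was called higher under 5 of 12 alternatives. PNPT1, the degrading exonuclease, GRSF1, which binds G-rich light-strand RNA, and MTPAP, the poly(A) polymerase, were not called, at 0.15, −0.11 and 0.06 on the log2 scale, with GRSF1 turning to 0.023 with library totals. PNPT1 was called higher under 3 of 12 alternatives and GRSF1 lower under 1.

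For mtDNA replication and nucleotide supply, 4 of 14 were lower and 4 higher, with TWNK, the helicase, at 0.60 and DNA2, a nuclease, at −0.61. Translation factors had 5 of 11 tested lower and 1 higher, with OXA1L, which inserts the new proteins into the membrane, at −0.38 and TUFM, the elongation factor, at −0.36. Of 7 regulators of mitochondrial biogenesis, PPARGC1B fell by 0.55 and NRF1 was higher by 0.37, in a list with 1 lower and 2 higher. The NRF1 call was lost under 2 of 12 alternatives. Over all genes tested, 23.6% were called lower and 22.6% higher.

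The nuclear subunits of the same complexes were mostly lower, beside the shares called lower of 23.6% over all genes tested and 46.1% over the 1390 abundant genes. Complex I had 28 of 37 called lower and 0 higher, with a median log2 fold change of −0.37, and NDUFS3 and NDUFS7, subunits of its matrix arm, at −0.95 and −0.70. Complex III had 7 of 9 lower (median −0.33), with UQCRC2 at −0.59 and UQCRH at −0.58, complex IV 10 of 11 (median −0.66), with COX6B1 at −0.88 and COX5B at −0.82, and complex V 14 of 17 (median −0.44), with ATP5MC3 at −0.80 and ATP5F1D at −0.70. The COX5B call was lost under 1 of 12 alternatives. Complex II, which has no mitochondrial gene, had 3 of 4 lower (median −0.47), with SDHD at −0.52 and SDHC at −0.42. No gene of these lists was called higher by edgeR or DESeq2 or had an unadjusted p under 0.05 for a rise in edgeR. Set beside the mitochondrial mRNAs, the nuclear median of complex I was −0.37 against −0.17 for the plus-strand mRNAs, that of complex III −0.33 against −0.81 for MT-CYB, and that of complex IV −0.66 against −0.42 to −0.63 for MT-CO1, MT-CO2 and MT-CO3.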

How the data were processed

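RNA-seq was performed on 4 libraries of BICR10 cells, 2 shControl and 2 shYEATS2. The deposited values were whole-number counts of read pairs per Ensembl gene, not normalized. The authors made these counts with HTSeq from 150 bp paired-end reads, which STAR had aligned to GRCh38. The strand setting, counting mode and annotation release were not given in the sources used here. Of 862 genes lying wholly inside exons of an opposite-strand gene, 31.4% had at least 10 counts (35.7% of all genes), whereas HTSeq's default mode without strand would have called their reads ambiguous. Pairs given to no gene stayed out of the library totals. Of the tallied pairs, 7.64% to 8.57% had no feature, 4.31% to 4.61% were ambiguous, and 3.25% to 3.53% did not align uniquely. The last may include pairs shared between mitochondrial genes and their nuclear copies, which was not tested.

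Genes were kept with filterByExpr, scaled with TMM (factors of 0.960, 0.950, 1.05 and 1.04) and fitted in R 4.3.3 by the robust quasi-likelihood method of edgeR 4.0.16 (glmQLFit, glmQLFTest). The threshold was 0.05 on the p adjusted by Benjamini-Hochberg. DESeq2 1.42.0 was an alternative. Replicates differed by more than counting noise (chi-square per degree of freedom of 5.95 and 5.39). Positions, strands and sequences came from GENCODE release 44 and hg38, with 60295 identifiers matched. The fit was tested on simulated data with 200 changed genes. Each ± is the SD of 2 libraries. Ratios of summed counts and shares were given without a test. All 37 members were accounted for. From each nuclear list the 2 called genes of largest change were named, at a mean of at least 10 CPM and with groups that did not overlap, besides POLRMT, TFAM, TFB2M, TEFM, LRPPRC, SLIRP, FASTK, GRSF1, MTPAP and PNPT1. The members and lists were chosen with earlier results of these data known. Alternatives were other scalings and filters, counts thinned to 11334133, a replicate block, and each library left out in turn, where a lone library was assumed to vary like the other group.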

Additional observations from a re-analysis of the deposited data

How the results depend on the processing

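The number of mitochondrial genes called lower was 7, and it was 12 without a filter on low counts, 11 with a replicate block, 4 at an adjusted p under 0.01 (chosen after the data had been seen), and 6 to 13 with a library left out, the 13 without shYEATS2 2. Libraries with the same number did not deviate together (r = −0.018 over genes), so the replicate block was not used in the report. The number called higher was 0, and 1 with library totals alone (MT-RNR1, 0.15). For the nuclear genes of mitochondrial gene expression, 17 lower and 9 higher became 9 and 22 with library totals, and 13 to 19 lower and 5 to 13 higher with a library left out, the 5 without shControl 1. With library totals the median log2 fold change over all genes tested also rose, from −0.01 to 0.13. As run for the report, edgeR called 23.6% of all genes tested lower and 22.6% higher. Shares called over all genes under the alternatives are not given here. The rRNA to mRNA difference of 0.25 was 0.42 with MT-RNR1 alone. The difference between light-strand and heavy-strand tRNAs lay between −0.40 and 0.24 with a library left out, at 0.24 without shControl 2 and 0.13 without shYEATS2 1. The cause of these differences was not tested.

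Log2 fold changes of genes that were not called turned sign in these cases. With library totals, MT-TS1 was 0.13, MT-ND4 0.031, MT-ND5 0.087, MT-TT 0.11, GRSF1 0.023 and TEFM 0.13. Without a filter MT-RNR1 was −0.028. With DESeq2's size factors MT-TS1 was 0.0032 and TEFM 0.0031, and in DESeq2's test they were 0.020 and 0.0056. After thinning, MT-TS1 was 0.045, MT-TT 0.10, TEFM 0.093 and MTPAP −0.0055. With the replicate block MT-TS1 was 0.0086. With a library left out, MT-RNR1 ranged from −0.021 to 0.043, MT-TQ from −0.28 to 0.50, MT-TY from −0.57 to 0.11, MT-TS1 from −0.19 to 0.20, MT-ND4 from −0.26 to 0.027, MT-ND5 from −0.21 to 0.086, MT-TT from −0.32 to 0.36, MT-TP from −0.12 to 0.44 and TEFM from −0.083 to 0.074.

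YEATS2, MT-CO1, MT-CO2, MT-CO3 and MT-CYB kept their direction and call under all 12 alternatives run for each. With 2 libraries a group, no outlier could be tested, and tRNAs with fewer than 100 counts in every library limit what could be detected for them.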
